A study of Mus musculus with 36 samples.

Results

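mmu-miR-205-5p and mmu-miR-203-3p are 2 of the 1963 mature miRNAs listed in the small RNA tables of a mouse prostate series. They were taken by name, as miRNAs linked to basal and stratified epithelium, with earlier results of these data known. Small RNA was sequenced from the ventral and lateral prostate lobes of male mice, 36 libraries in 12 groups of 3. The study asked how mutation of Elac2, which encodes the enzyme that trims the 3′ ends of precursor transfer RNAs, changes the prostate with and without a tumour-initiating transgene. WT mice carried normal Elac2. KO mice carried a homozygous deletion made by Cre from the probasin (Pb) promoter, so that Elac2 was lost in prostate epithelium and not in the rest of the mouse. A537T mice were homozygous in every tissue for the A537T point mutation, a single amino acid change in the ELAC2 protein. The 3 lines were also studied as TRAMP mice (named A537T-TRAMP, WT-TRAMP and KO-TRAMP), heterozygous for a transgene which expresses SV40 T antigens in prostatic epithelium from that same promoter. Each of these 6 genotypes was studied at 10 and at 30 weeks of age, on a background written C56NL/6N in the labels. The males of the groups were matched for age and by litter.

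MicroRNAs are cut from hairpin precursors, and as a rule 1 arm of the hairpin is loaded into an Argonaute protein and guides it to messenger RNAs through the seed, bases 2 to 8. miR-205 is known as a miRNA of basal cells in stratified and glandular epithelia, the prostate included, and represses the transcription factors Zeb1 and Zeb2 together with the miR-200 family. miR-203 is known from the upper layers of the skin, where it represses p63, a transcription factor of basal cells. The miR-200 family (miR-200a, miR-200b, miR-200c, miR-141 and miR-429) is made by nearly all epithelial cells, and is used below as a stand-in for total epithelium, which was not tested.

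The mature sequences are shown because the seed decides which messenger RNAs a miRNA pairs with, and the seeds of these 2 are unlike each other. They are written 5′ to 3′ with the seed in capitals, from RefSeq on GRCm38.p6.
miR-205-5p: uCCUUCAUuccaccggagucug
miR-203-3p: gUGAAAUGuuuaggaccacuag
Among 1679 mature mouse sequences, no second one carried CCUUCAU or UGAAAUG at bases 2 to 8. miR-205-5p lies on the minus strand at chr1:193507503-193507524. Its gene, Mir205, sits inside an exon of the long noncoding RNA gene 4631405K08Rik on the same strand, by the GENCODE annotation. miR-203-3p lies on the plus strand at chr12:112130927-112130948, in Mir203, which overlaps no other GENCODE gene.

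The hairpins show which arm is the measured one, here with the mature member in capitals.
Mir205 hairpin: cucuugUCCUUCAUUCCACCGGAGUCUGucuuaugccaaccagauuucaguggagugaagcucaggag
Mir203 hairpin: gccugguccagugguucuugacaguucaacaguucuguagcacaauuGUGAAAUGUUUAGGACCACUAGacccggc
miR-205-5p took 99.6% to 99.9% of the reads of both arms of its hairpin in every library, and miR-203-3p likewise took 99.6% to 99.9%. The antisense entry miR-203b-5p had 0 reads in all 36 libraries, which allows up to 0.137 to 4.58 reads in 1000000 depending on depth (3 reads per library). miR-203b-3p, from the same antisense hairpin, had 0 to 49 reads per library.

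Levels are given as CPM, the reads of a miRNA per 1000000 miRNA reads of its library. Depth ran from 4544257 to 21870210 reads in 35 libraries, and library 35, of the A537T group at 10 weeks, held 655455 reads. In library 35 the level of miR-203-3p was 802 CPM with a 95% Wilson interval of 737 to 874, which covers counting error only, and intervals were narrower in the deeper libraries. The spread between the 3 libraries of a group was therefore mostly larger than counting error. In one respect the libraries stood apart. The 7 skeletal muscle miRNAs, miR-1a, miR-133 and miR-206 among them, took 9.73% to 30.7% of the reads in WT at 10 weeks, 3.72% to 13.7% in A537T at 10 weeks and 0.736% to 6.51% in KO at 10 weeks, against at most 3.09% in a library of any other group. All 5 miR-200 family members were read in every library, at 3.49% to 9.60% of reads in sum, so epithelium was present in each. The tables analysed hold miRNAs only, so the basal label was not checked here against p63 or the basal keratins. The 2 miRNAs did not move together, and they are called by their names below.

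The main picture was a split between the members in mice with the TRAMP transgene. At 30 weeks miR-205-5p was 2.92-fold lower and miR-203-3p 2.29-fold higher in TRAMP than in non-TRAMP prostate, and for neither miRNA did the libraries of the 2 sides overlap. At 10 weeks both differences were in the same direction but smaller, at 1.64-fold lower and 1.56-fold higher. Of all 298 miRNAs tested in limma, 71.1% passed in this averaged contrast at 10 weeks and 46.3% at 30 weeks. How many of them also separate without overlap was not counted. In whole tissue, fewer cells of a type and less RNA per cell cannot be told apart.

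**Figure D1:**
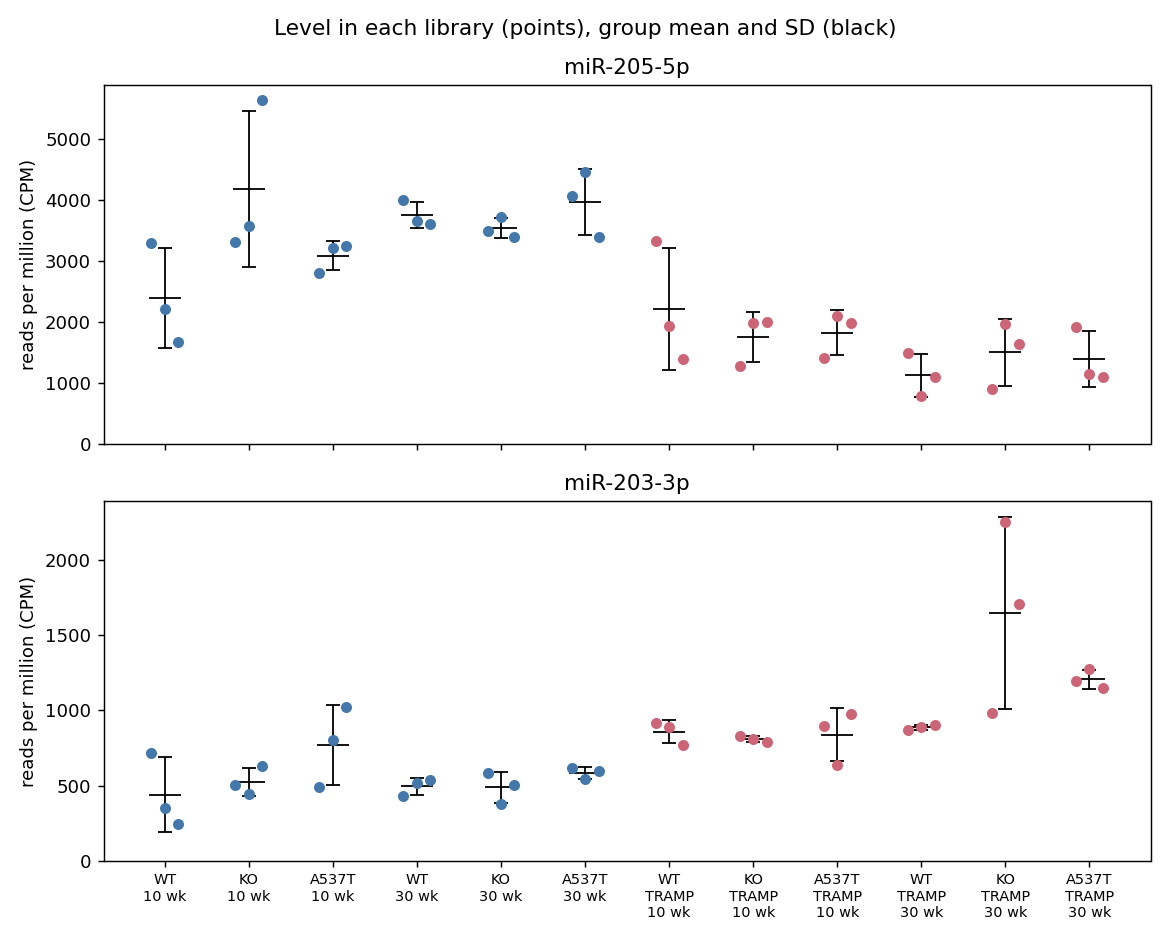
CPM (vertical axes, from 0) of miR-205-5p and miR-203-3p in each library, by group; blue points are non-TRAMP and red points TRAMP libraries, and black marks give the group mean ± SD (n = 3). At 30 weeks all TRAMP libraries lie below all non-TRAMP libraries for miR-205-5p (786 to 1968 against 3388 to 4459 CPM) and above them for miR-203-3p (872 to 2257 against 379 to 617 CPM).

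mmu-miR-205-5p, the basal cell miRNA, was measured at 30 weeks without TRAMP at 4003, 3652 and 3606 CPM in WT, at 3491, 3723 and 3398 CPM in KO and at 4061, 4459 and 3388 CPM in A537T. These 9 libraries formed a narrow band. With TRAMP at 30 weeks it was at 1489, 786 and 1109.8 CPM in WT-TRAMP, at 906, 1968 and 1643 CPM in KO-TRAMP and at 1917, 1159 and 1102 CPM in A537T-TRAMP. The highest TRAMP library was thus well under the lowest non-TRAMP library. Averaged over the 3 lines, miR-205-5p fell by 1.54 ± 0.18 on the log2 scale (SE, 9 against 9 libraries, limma adjusted p = 3.87e-08). In the single lines it fell by 1.78 in WT (adjusted p = 6.36e-05), by 1.30 in KO (adjusted p = 0.00174) and by 1.55 in A537T (adjusted p = 0.000553), each with an SE of 0.31. Of all 298 miRNAs tested, 46.3% passed in the averaged contrast, and miR-205-5p had the 23rd smallest p of them. In the single lines the shares passing at 30 weeks were 33.6% for WT, 36.2% for KO and 15.1% for A537T.

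At 10 weeks without TRAMP, miR-205-5p was less even. It stood at 3290.2, 2216 and 1671 CPM in WT, at 3312, 3567 and 5638 CPM in KO and at 2810.05, 3209.98 and 3239 CPM in A537T. With TRAMP it was at 3332, 1938 and 1396 CPM in WT-TRAMP, at 1277, 1993 and 2000.35 CPM in KO-TRAMP and at 1407, 2094 and 1987 CPM in A537T-TRAMP. The ranges of WT and WT-TRAMP therefore overlapped almost fully, while the TRAMP libraries of KO and A537T lay below all their non-TRAMP libraries. Averaged over the lines, miR-205-5p fell by 0.72 ± 0.18 on the log2 scale (adjusted p = 0.00101). This contrast was a broad one: 71.1% of the miRNAs tested passed, and miR-205-5p was only the 129th by p, so a call here says little about this miRNA in particular. The median of all miRNAs was -0.23 in the same contrast. By line, miR-205-5p fell by 1.24 in KO (adjusted p = 0.00263, background 47.7%) and by 0.77 in A537T (adjusted p = 0.0498, background 39.3%). In WT the value was -0.15 (95% interval -0.78 to 0.49, adjusted p = 0.739, background 40.9%). The A537T call sat at the threshold and was lost without any 1 of its 6 libraries (adjusted p from 0.0505 to 0.208). It was also lost under 6 of 8 other settings: no filter (adjusted p = 0.124), a mean of at least 100 CPM (0.0518), TMM (0.109), no variance trend (0.0536), edgeR (0.122) and DESeq2 (0.118).

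mmu-miR-203-3p, the miRNA of upper epidermal layers, was measured at 30 weeks without TRAMP at 429, 517 and 538 CPM in WT, at 584, 379 and 504 CPM in KO and at 617, 541 and 596 CPM in A537T. In TRAMP mice it was at 872, 891 and 902 CPM in WT-TRAMP, at 984, 2257 and 1705 CPM in KO-TRAMP and at 1197, 1273 and 1149.7 CPM in A537T-TRAMP. All 9 TRAMP libraries were above all 9 non-TRAMP libraries. The WT-TRAMP values were close together, whereas KO-TRAMP spanned more than the other groups. Averaged over the lines, miR-203-3p rose by 1.2 ± 0.17 on the log2 scale (adjusted p = 1.1e-06, the 33rd smallest p of the 298). It rose by 0.85 in WT (adjusted p = 0.0259), by 1.69 in KO (adjusted p = 4.62e-05) and by 1.04 in A537T (adjusted p = 0.0103), each with an SE of 0.29. The shares of all miRNAs passing were 46.3% in the averaged contrast, 33.6% in WT, 36.2% in KO and 15.1% in A537T. The WT call was lost without any 1 of libraries 10, 11, 12 and 19 (adjusted p up to 0.075) and with no filter on low miRNAs (adjusted p = 0.0684).

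At 10 weeks without TRAMP, miR-203-3p stood at 719, 353 and 243 CPM in WT, at 501, 447 and 630.3 CPM in KO and at 491, 802 and 1023 CPM in A537T. With TRAMP it was at 917, 889 and 773 CPM in WT-TRAMP, at 831, 812 and 791 CPM in KO-TRAMP and at 899, 640.3 and 975 CPM in A537T-TRAMP. In WT and KO the TRAMP libraries were all higher, and in A537T they overlapped the others. The averaged rise was 0.64 ± 0.17 on the log2 scale (adjusted p = 0.00171, 137th by p, against the 71.1% background). By line, miR-203-3p rose by 1.12 in WT (adjusted p = 0.00308, background 40.9%). In KO the value was 0.64 (95% interval 0.04 to 1.24, adjusted p = 0.069), and edgeR (0.83, adjusted p = 0.0168) and DESeq2 (0.95, adjusted p = 0.00185) called it. In A537T it was 0.16 (95% interval -0.44 to 0.76, adjusted p = 0.691). Skeletal muscle miRNAs moved with the TRAMP contrast at 10 weeks, and they take part of the total to which CPM is scaled. With their reads left out of the total, the averaged differences were -0.87 for miR-205-5p (adjusted p = 7.65e-05) and 0.48 for miR-203-3p (adjusted p = 0.00631), while the median of all miRNAs moved by -0.15.

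**Figure D2:**
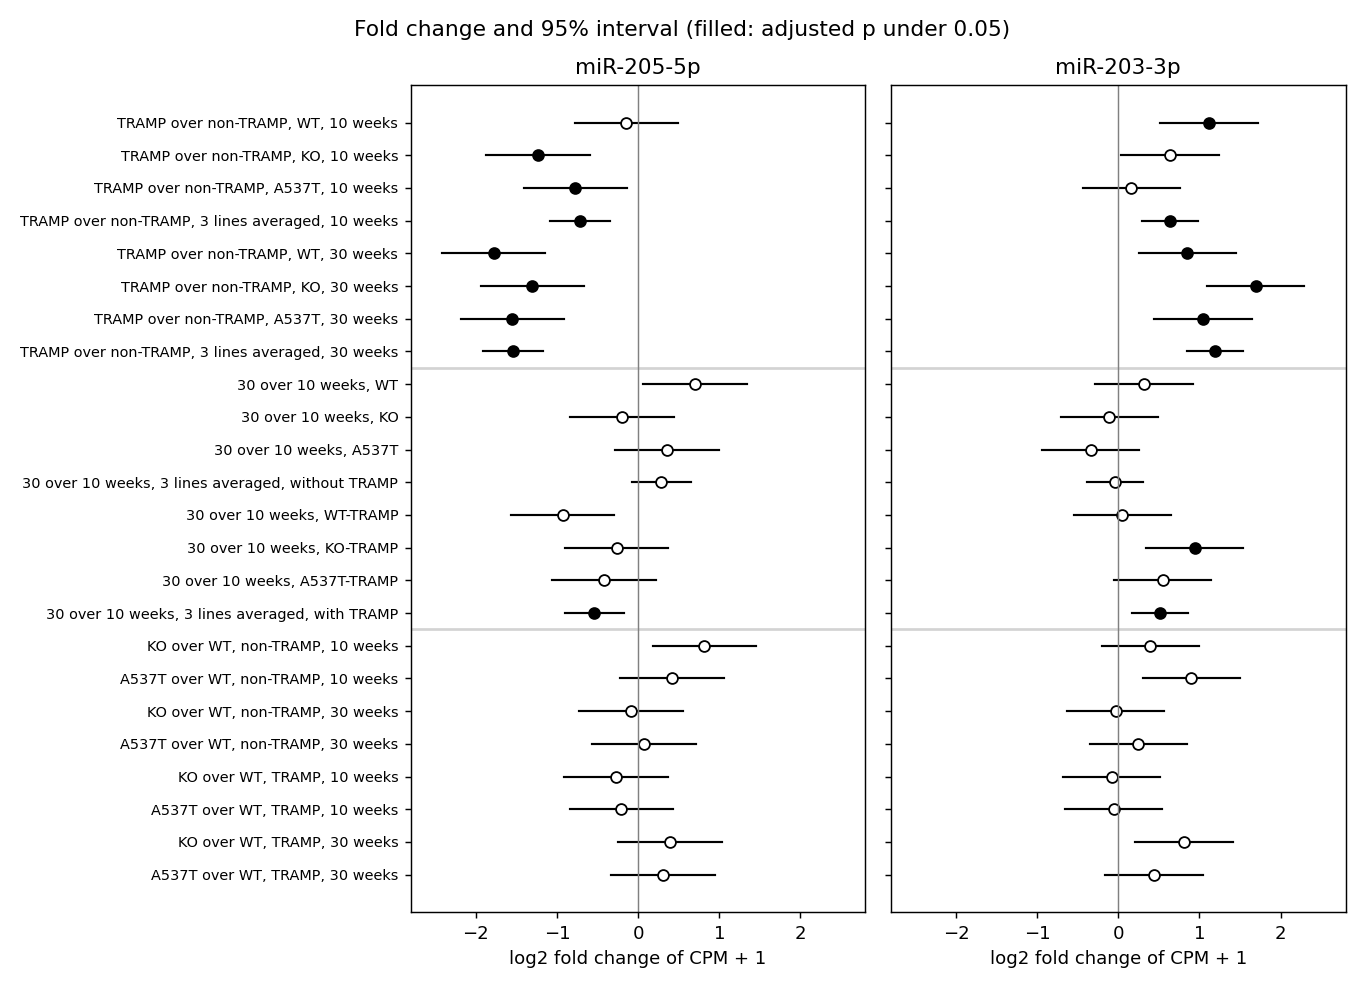
log2 fold change (horizontal axes) with its 95% interval from limma for miR-205-5p (left) and miR-203-3p (right), one contrast per line; filled points have an adjusted p under 0.05. All 4 TRAMP contrasts at 30 weeks are filled on both sides, with opposite sign, and none of the 8 contrasts of a mutant with its control is filled.

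Put as 1 number, the ratio of miR-205-5p to miR-203-3p carried both movements and does not depend on how a library is scaled. This ratio was formed after the values were seen and is given without a test. Without TRAMP there were 3.17 to 9.83 reads of miR-205-5p for each read of miR-203-3p over 18 libraries, with a median of 6.66. With TRAMP the ratio was 1.54 to 3.63 at 10 weeks, with a median of 2.18, and 0.872 to 1.71 at 30 weeks, with a median of 0.958. The 9 TRAMP libraries of 30 weeks did not overlap the 18 non-TRAMP libraries, and the 9 of 10 weeks overlapped them at the edge. At 30 weeks some libraries of each TRAMP group held fewer reads of miR-205-5p than of miR-203-3p. These were all 3 of KO-TRAMP (0.872, 0.922 and 0.964), 2 of A537T-TRAMP (0.91 and 0.958) and 1 of WT-TRAMP (0.883). No non-TRAMP library came near equality, as the lowest, in A537T at 10 weeks, was at 3.17.

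**Figure D3:**
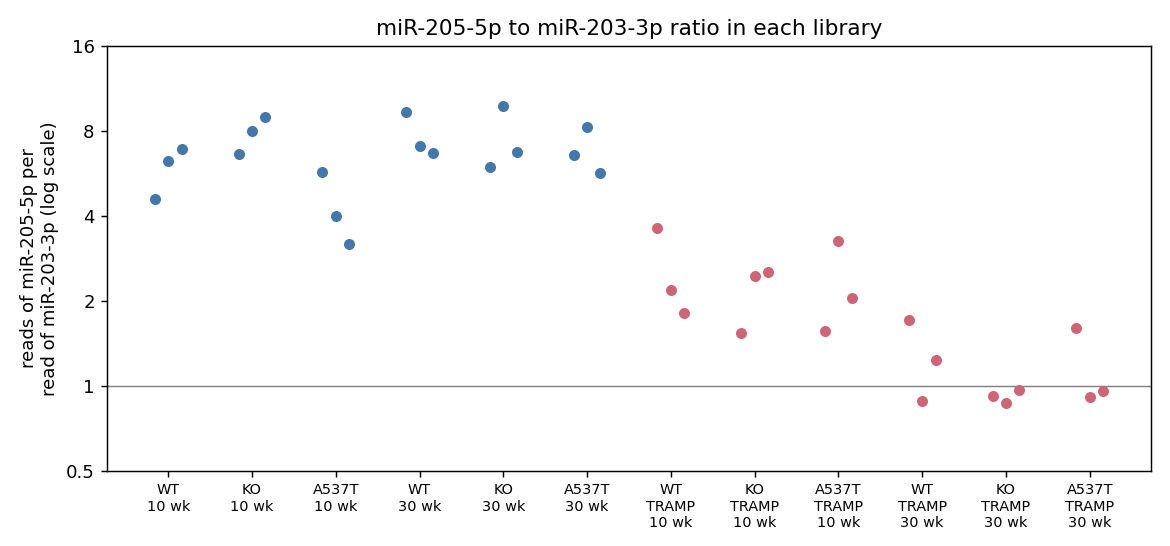
Reads of miR-205-5p per read of miR-203-3p in each library (vertical axis, log scale; the line marks equal reads), by group, with non-TRAMP in blue and TRAMP in red. The ratio is 3.17 to 9.83 in non-TRAMP libraries, 1.54 to 3.63 in TRAMP libraries of 10 weeks and 0.872 to 1.71 in TRAMP libraries of 30 weeks.

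With age, changes of the averaged levels were called in TRAMP mice and not in mice without TRAMP. Between 10 and 30 weeks in TRAMP mice, averaged over the lines, miR-205-5p fell by 0.54 ± 0.18 on the log2 scale (adjusted p = 0.0286) and miR-203-3p rose by 0.51 ± 0.17 (adjusted p = 0.0272), where 29.2% of miRNAs passed. Both calls were near the threshold. For miR-205-5p the call was lost without any 1 of libraries 1, 5, 9, 11, 14, 15 and 16 (adjusted p up to 0.0715), and for miR-203-3p without any 1 of libraries 5, 17 and 18 (adjusted p up to 0.0687). With no filter on low miRNAs, the adjusted p was 0.0559 for miR-205-5p and 0.0536 for miR-203-3p. Without TRAMP the averaged differences were 0.29 for miR-205-5p (95% interval -0.08 to 0.66, adjusted p = 0.208) and -0.04 for miR-203-3p (95% interval -0.39 to 0.30, adjusted p = 0.843), where 37.2% passed. Other miRNAs moved with age as well, and their part in these values was not tested. In TRAMP mice all 5 leukocyte miRNAs rose (median 1.21, against 0.09 over all miRNAs tested), 3 of 6 stromal miRNAs rose and 0 of 5 miR-200 family miRNAs passed. Without TRAMP all 5 miR-200 family miRNAs rose (median 0.65, against -0.04 over all), and the 6 skeletal muscle miRNAs tested fell (median -3.53).

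Tested directly, the TRAMP difference of miR-205-5p at 30 weeks was larger than that at 10 weeks by -0.83 ± 0.25 on the log2 scale (adjusted p = 0.0126), where 41.6% of miRNAs passed. The lines were not alike in this. From 10 to 30 weeks the difference went from -0.15 to -1.78 in WT and from -0.77 to -1.55 in A537T. In KO it was nearly the same at both ages (-1.24 and -1.30). The change was not tested line by line. Over 8 other settings the 10-week difference ran from -0.47 to -0.14 in WT, -1.26 to -0.96 in KO and -0.90 to -0.57 in A537T. Without skeletal muscle reads in the 10-week total, the median of all miRNAs moved by -0.31 in WT, -0.021 in KO and -0.12 in A537T. For miR-203-3p the change of the TRAMP difference was 0.56 ± 0.24 (adjusted p = 0.0625), and it was 0.71 (adjusted p = 0.00911) with skeletal muscle reads left out of the total. It also passed without any 1 of libraries 16, 22, 30 and 34, with 0.60 to 0.68 and adjusted p from 0.0151 to 0.0471. Over all 36 exclusions of 1 library it ran from 0.41 to 0.68 (adjusted p up to 0.113).

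In the 6 single-line comparisons of 30 with 10 weeks, made for each miRNA, 1 call was made. miR-203-3p rose by 0.94 ± 0.29 in KO-TRAMP (adjusted p = 0.0264, background 18.1%), and the call was lost without any 1 of libraries 7, 8, 9, 17 and 18 (adjusted p up to 0.208). In WT-TRAMP, where 8.72% of miRNAs passed, miR-205-5p had a difference of -0.93 ± 0.31 (adjusted p = 0.0622), and miR-203-3p one of 0.05 (95% interval -0.55 to 0.65). The miR-205-5p difference was called by DESeq2 (adjusted p = 0.0226), with skeletal muscle reads left out of the total (adjusted p = 0.0484) and without library 3 (-1.22, adjusted p = 0.026). Over all 6 exclusions of 1 library it ran from -1.22 to -0.59 (adjusted p up to 0.337). In A537T-TRAMP, also with a background of 8.72%, miR-205-5p had a difference of -0.42 (adjusted p = 0.471) and miR-203-3p one of 0.55 (adjusted p = 0.284). In the lines without TRAMP, 0 of the 6 values passed in limma, edgeR or DESeq2, and 1 had p under 0.05 before adjustment in limma. That value was 0.70 for miR-205-5p in WT (adjusted p = 0.119). It passed only without library 28 (0.96, adjusted p = 0.0491), and the 6 exclusions of 1 library ran from 0.47 to 0.96 (adjusted p up to 0.37). Over 8 other settings it ran from 0.38 to 0.70 (adjusted p up to 0.46). Without skeletal muscle reads in the total, the median of all miRNAs in this contrast moved by -0.31. The miR-205-5p libraries of WT at the 2 ages did not overlap, and the share of all miRNAs for which this holds was not counted. The backgrounds there were 13.1% in WT, 15.4% in KO and 18.1% in A537T.

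For each of the 8 comparisons of a mutant line with its control, the question was whether Elac2 mutation changes either miRNA. None of the 16 values passed in limma, 3 of them had p under 0.05 before adjustment, and edgeR called 0 and DESeq2 1 of the 16. These comparisons called few miRNAs at all: 5.7% for KO against WT at 10 weeks, 1.01% for KO against WT at 30 weeks, 4.03% for KO-TRAMP against WT-TRAMP at 30 weeks and 0% in the other 5. KO and A537T share their control libraries at each age and background. For any 2 groups of 3 libraries, full separation can give no exact two-sided permutation p under 0.1. The share of all miRNAs that separate in these contrasts was not counted. The 95% intervals reached 0.60 to 0.64 to either side of a value on the log2 scale, which is a fold of 1.52 to 1.56.

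The 3 values with the smallest p were the following. In KO at 10 weeks miR-205-5p differed from WT by 0.82 ± 0.31 (95% interval 0.18 to 1.45, adjusted p = 0.119), and the KO libraries, at 3312 to 5638 CPM, were all above the WT libraries, at 1671 to 3290.2 CPM. In A537T at 10 weeks miR-203-3p differed from WT by 0.90 ± 0.29 (95% interval 0.30 to 1.50, adjusted p = 0.504), with overlap between the groups. The WT libraries of 10 weeks are those with the most skeletal muscle miRNA. Without those reads in the total the values were 0.53 (adjusted p = 0.291) and 0.71 (adjusted p = 0.397). Library 28, a WT library, was the highest of its group for both members, and without it the 2 values were 1.07 (adjusted p = 0.0225) and 1.33 (adjusted p = 0.0142), while miR-203-3p in KO moved from 0.40 (adjusted p = 0.397) to 0.83 (adjusted p = 0.0288). No other of the 6 exclusions of 1 library gave a call for these values. Over the 6 they ran from 0.58 to 1.07, from 0.55 to 1.33 and from 0.046 to 0.83. The adjusted p reached 0.88, 0.991 and 0.983 in turn.

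In KO-TRAMP at 30 weeks miR-203-3p differed from WT-TRAMP by 0.81 ± 0.29 (95% interval 0.21 to 1.41, adjusted p = 0.087). The KO-TRAMP libraries, at 984 to 2257 CPM, were all above the WT-TRAMP libraries, at 872 to 902 CPM. DESeq2, as the only 1 of 9 other settings, called this difference (adjusted p = 0.0198). In limma it was called without library 16, the lowest of KO-TRAMP, at a value of 1.14 (adjusted p = 0.00658). That was the only call among 6 exclusions of 1 library, which ran from 0.54 to 1.14 (adjusted p up to 0.603). A537T-TRAMP libraries, at 1149.7 to 1273 CPM, were also all above WT-TRAMP, with a difference of 0.44 (95% interval -0.16 to 1.04, adjusted p = 0.702). For miR-205-5p at the same age the values were 0.39 (95% interval -0.25 to 1.03) in KO-TRAMP and 0.30 (95% interval -0.33 to 0.94) in A537T-TRAMP. The other 9 values lay between -0.27 and 0.42.

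Whether a mutant effect differed between backgrounds or ages was tested in 8 more contrasts for each miRNA. None of the 16 values passed in limma, edgeR or DESeq2, and 3 had p under 0.05 before adjustment in limma. The background was 8.72% for the KO effect in TRAMP minus non-TRAMP at 30 weeks and 0% in the other 7. The KO effect on miR-205-5p at 10 weeks in TRAMP minus non-TRAMP was -1.09 ± 0.44 (adjusted p = 0.225), and without library 28 it was -1.35 (adjusted p = 0.0488). For miR-203-3p, the KO effect at 30 weeks in TRAMP minus non-TRAMP was 0.84 ± 0.41 (adjusted p = 0.229) and that in TRAMP at 30 minus 10 weeks was 0.89 ± 0.41 (adjusted p = 0.234). Without library 16 these were 1.18 (adjusted p = 0.0363) and 1.22 (adjusted p = 0.0423). Each of the 3 values passed in only 1 of 12 exclusions of 1 library. Over the 12 they ran from -1.38 to -0.75 for miR-205-5p, and from 0.58 to 1.18 and 0.62 to 1.22 for miR-203-3p. The adjusted p reached 0.695, 0.538 and 0.612 in turn.

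By group mean, miR-205-5p was ordered KO at 10 weeks (4173 ± 1276 CPM, SD, n = 3), A537T at 30 weeks (3969 ± 541), WT at 30 weeks (3753 ± 217), KO at 30 weeks (3537 ± 168), A537T at 10 weeks (3086 ± 240), WT at 10 weeks (2393 ± 824), WT-TRAMP at 10 weeks (2222 ± 999), A537T-TRAMP at 10 weeks (1829 ± 370), KO-TRAMP at 10 weeks (1757 ± 416), KO-TRAMP at 30 weeks (1506 ± 544), A537T-TRAMP at 30 weeks (1393 ± 455) and WT-TRAMP at 30 weeks (1128 ± 352). All 6 non-TRAMP groups came before all 6 TRAMP groups. Neighbours in this order overlapped in range, except KO at 30 weeks and A537T at 10 weeks, whose ranges were apart.

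For miR-203-3p the order was nearly turned round. KO-TRAMP (1649 ± 639 CPM), A537T-TRAMP (1206 ± 62.2) and WT-TRAMP (888 ± 15.1) at 30 weeks came first, followed by WT-TRAMP (859.8 ± 76.5), A537T-TRAMP (838 ± 175) and KO-TRAMP (811 ± 19.9) at 10 weeks. A537T at 10 weeks (772 ± 267), A537T at 30 weeks (585 ± 39.5), KO at 10 weeks (526 ± 94.3), WT at 30 weeks (495 ± 57.8), KO at 30 weeks (489 ± 104) and WT at 10 weeks (438 ± 249) closed the list. Only A537T-TRAMP and WT-TRAMP at 30 weeks were neighbours without overlap. Over the 12 group means of log2(CPM + 1) the 2 members had a Pearson r of -0.75, given as a description, since all values of a library share its total.

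The passenger arm of Mir205 comes from the same hairpin, libraries and totals as miR-205-5p, so it is no separate result. It is printed, with its seed in capitals, because its reads were counted apart from those of miR-205-5p.
miR-205-3p: gAUUUCAGuggagugaagcuca
It lies at chr1:193507467-193507488 on the minus strand. Its level was too low for the test, with 8 to 213 reads per library. At 30 weeks it was 7.26 to 13.8 CPM without TRAMP and 2.20 to 6.09 CPM with TRAMP, again with no overlap. At 10 weeks it was 2.98 to 12.9 CPM without and 1.81 to 6.82 CPM with TRAMP. Over the 12 group means its r with miR-205-5p was 0.95. The passenger arm miR-203-5p, at 2 to 49 reads per library, was at 0.688 to 1.61 CPM without and 1.84 to 3.52 CPM with TRAMP at 30 weeks, which is apart and in the direction of miR-203-3p. At 10 weeks it was 0.292 to 3.05 CPM without and 1.09 to 3.3 CPM with TRAMP, which overlaps almost fully. How many of all miRNAs separate without overlap at 30 weeks was not counted. Of the 298 tested, 46.3% passed in the averaged contrast of that age.

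The miR-200 family was used as a yardstick for epithelium. Whether its sum follows how much epithelium a library held was not tested. The 5 members summed to 34864 to 64472 CPM without and 57936 to 89096 CPM with TRAMP at 10 weeks. At 30 weeks they summed to 53073 to 96019 CPM without and 56883 to 89791 CPM with TRAMP. At 10 weeks all 5 rose with TRAMP in the averaged limma contrast, where 71.1% of all miRNAs tested passed. At 30 weeks, where 46.3% passed, miR-200a-3p (0.47, adjusted p = 0.002) and miR-141-3p (0.53, adjusted p = 0.00134) rose. There miR-200c-3p fell by 0.56 (adjusted p = 0.000743) and the other 2 did not pass, so the 5 members did not move alike.

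Set against this sum, miR-205-5p fell at both ages. Its ratio to the miR-200 sum was 0.0329 to 0.125 without and 0.0147 to 0.0374 with TRAMP at 10 weeks. At 30 weeks it was 0.0417 to 0.0638 without and 0.0103 to 0.0342 with TRAMP, with no overlap. The log2 ratio fell by 1.35 at 10 weeks (exact permutation test within lines, two-sided, adjusted p = 0.0015, 9 against 9 libraries) and by 1.47 at 30 weeks (adjusted p = 0.001). In the single lines the differences ran from -1.89 to -0.88 at 10 weeks and from -1.71 to -1.24 at 30 weeks. The p of 0.00025 behind the 30-week value is the smallest that the 8000 arrangements can give.

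miR-203-3p departed from the miR-200 sum at 30 weeks, and no difference was detected at 10 weeks. Its ratio was 0.00478 to 0.0293 without and 0.00957 to 0.015 with TRAMP at 10 weeks, a log2 difference of 0.01 (exact permutation test, adjusted p = 0.966). At 30 weeks the ratio was 0.00435 to 0.0112 without and 0.0116 to 0.0392 with TRAMP, with no overlap and a rise of 1.27 (adjusted p = 0.001). Between 10 and 30 weeks in TRAMP mice the ratio rose by 0.63 (adjusted p = 0.0015), but with 5 other epithelial miRNAs (miR-183, miR-182, miR-96, miR-375 and miR-31) as denominator this was 0.10 (adjusted p = 0.421). The same change of denominator made the age difference of miR-205-5p in TRAMP mice a fall of 0.96 (adjusted p = 0.002), where the miR-200 sum gave -0.42 (adjusted p = 0.208). Without TRAMP the age differences to the miR-200 sum were -0.30 for miR-205-5p (adjusted p = 0.213) and -0.63 for miR-203-3p (adjusted p = 0.0916). The comparisons with the miR-200 sum were 8 exact permutation tests, adjusted over the 8. Those with the other denominator were a separate set of exact permutation tests, adjusted on its own.

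**Figure D4:**
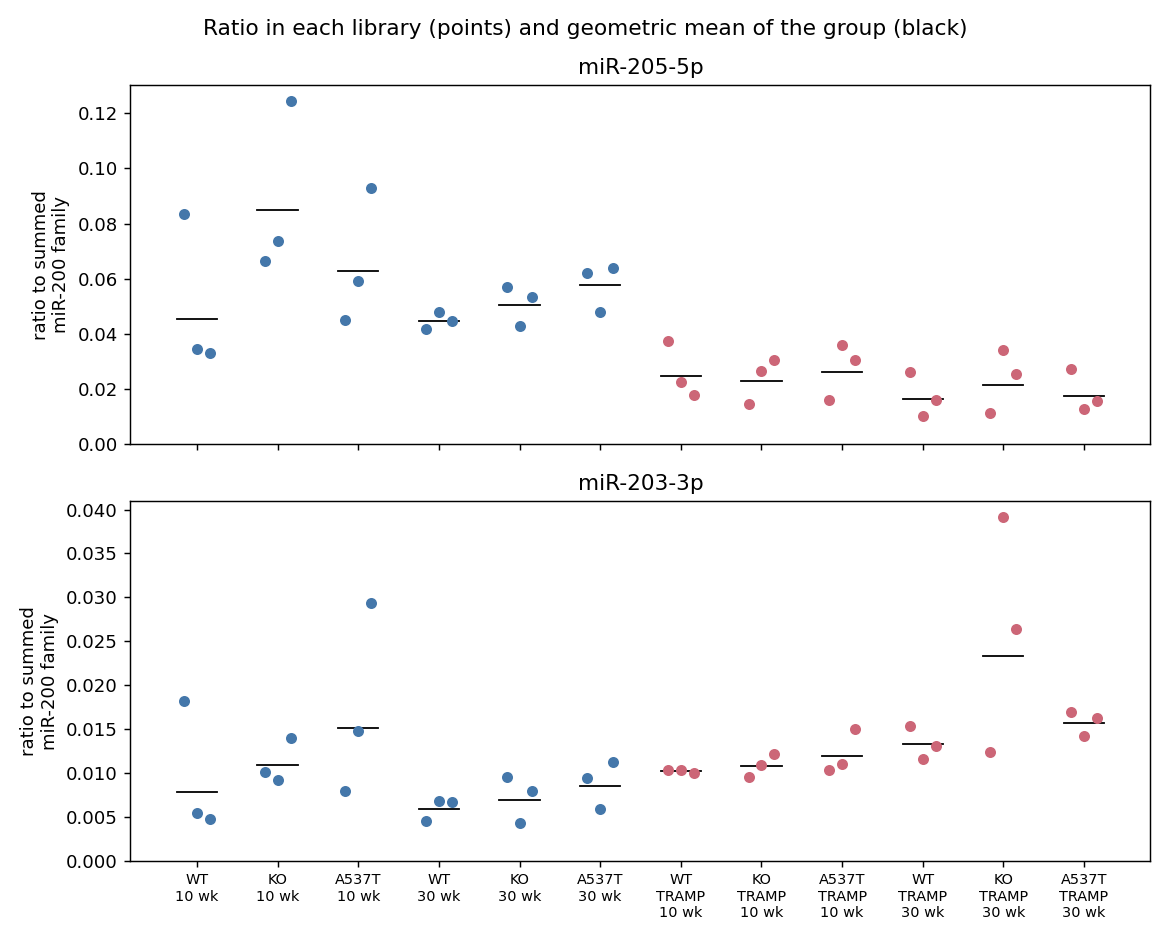
Ratio of miR-205-5p (top) and miR-203-3p (bottom) to the summed CPM of the 5 miR-200 family miRNAs (vertical axes, from 0) in each library; black lines are geometric means of the groups, blue is non-TRAMP and red is TRAMP. At 30 weeks the TRAMP libraries lie below the others for miR-205-5p (0.0103 to 0.0342 against 0.0417 to 0.0638) and above them for miR-203-3p (0.0116 to 0.0392 against 0.00435 to 0.0112).

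The listed miRNAs of other cell types also differed with TRAMP in these whole lobes, and their part in the results was not tested. Over all 298 miRNAs tested, 71.1% passed in the averaged contrast at 10 weeks (87 rose and 125 fell). At 30 weeks 46.3% passed (80 rose and 58 fell), and the counts below are to be read beside these shares. At 10 weeks in the averaged contrast, all 6 stromal and smooth muscle miRNAs tested fell, as did both endothelial miRNAs (miR-126a-3p and miR-126a-5p) and the 6 of 7 skeletal muscle miRNAs that were tested. The list medians were -0.83 for stromal, -3.64 for skeletal muscle and 0.76 for miR-200 family miRNAs, against -0.23 over all miRNAs tested. Of the 5 leukocyte miRNAs, 2 rose and 3 fell, 4 of 5 other epithelial miRNAs rose and the 1 neural miRNA tested of 3 did not pass. At 30 weeks, 3 of 5 leukocyte miRNAs rose, 1 of 6 stromal miRNAs fell (miR-145a-5p, by 1.21), 1 skeletal muscle miRNA rose and 2 fell, 2 of 5 other epithelial miRNAs rose, and neither an endothelial nor the neural miRNA passed. The stromal list summed to 7.22% to 40.3% of reads without and 7.6% to 22.8% with TRAMP at 10 weeks, and to 12.9% to 29.9% without and 6.40% to 34.4% with TRAMP at 30 weeks. Leukocyte miRNAs summed to 234 to 634 CPM without and 731 to 1696 CPM with TRAMP at 30 weeks. Of the markers in these lists, only miR-208b-3p and miR-499-5p, both of skeletal muscle, were at 0 in any library.

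As a description, the ratio of miR-205-5p to the stromal sum was 0.0117 to 0.0297 without and 0.00572 to 0.0142 with TRAMP at 30 weeks, with medians of 0.015 and 0.00796 and an overlap of the ranges. At 10 weeks it was 0.00805 to 0.0231 without and 0.0092 to 0.0293 with TRAMP, and here the median with TRAMP (0.0141) was above that without (0.0117). For miR-203-3p the ratio to the stromal sum was 0.00183 to 0.00319 without and 0.00437 to 0.0154 with TRAMP at 30 weeks, with no overlap, and 0.00139 to 0.00336 without and 0.00281 to 0.0113 with TRAMP at 10 weeks.

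The miRNAs with the pattern closest to each member were named by Pearson r over the 12 group means of log2(CPM + 1), among 162 miRNAs with a mean of at least 100 CPM. For miR-205-5p these were miR-145a-5p (0.89) and miR-145a-3p (0.88), the 2 arms of a smooth muscle hairpin, then miR-320-3p (0.87), miR-365-3p (0.87) and miR-193b-3p (0.84). Of the miR-200 family, miR-200c-3p was at 0.37 and miR-200a-3p at -0.68. All 5 nearest miRNAs fell with TRAMP at 30 weeks in the averaged contrast, by 0.69 (miR-145a-3p) to 2.02 (miR-365-3p) on the log2 scale. They were picked by this same pattern, so the direction follows largely from the choice and is no separate result.

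For miR-203-3p the nearest were miR-106b-5p (0.92), miR-28a-5p (0.91), miR-93-5p (0.89), miR-872-5p (0.89) and miR-17-5p (0.88). All 5 rose with TRAMP at 30 weeks, by 0.61 (miR-28a-5p) to 2.13 (miR-106b-5p), a direction that again follows largely from how they were picked. The sequences of 3 of them are shown because they carry 1 seed, AAAGUGC, which is not that of miR-203-3p.
miR-106b-5p: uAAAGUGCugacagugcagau
miR-93-5p: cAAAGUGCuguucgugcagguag
miR-17-5p: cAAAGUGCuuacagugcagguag
miR-106b-5p (chr5:138165787-138165807) and miR-93-5p (chr5:138165574-138165596) lie on the minus strand inside Mcm7, a gene for a subunit of the replicative helicase. miR-17-5p (chr14:115043684-115043706, plus strand) lies in an exon of Mir17hg, the host transcript of a cluster known for its action in dividing cells. In the averaged contrast at 30 weeks miR-93-5p rose by 1.88 ± 0.11 and miR-17-5p by 1.17 ± 0.15. The r values describe 12 group means in which the step between non-TRAMP and TRAMP is the main feature, and carry no p.

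**Figure D5:**
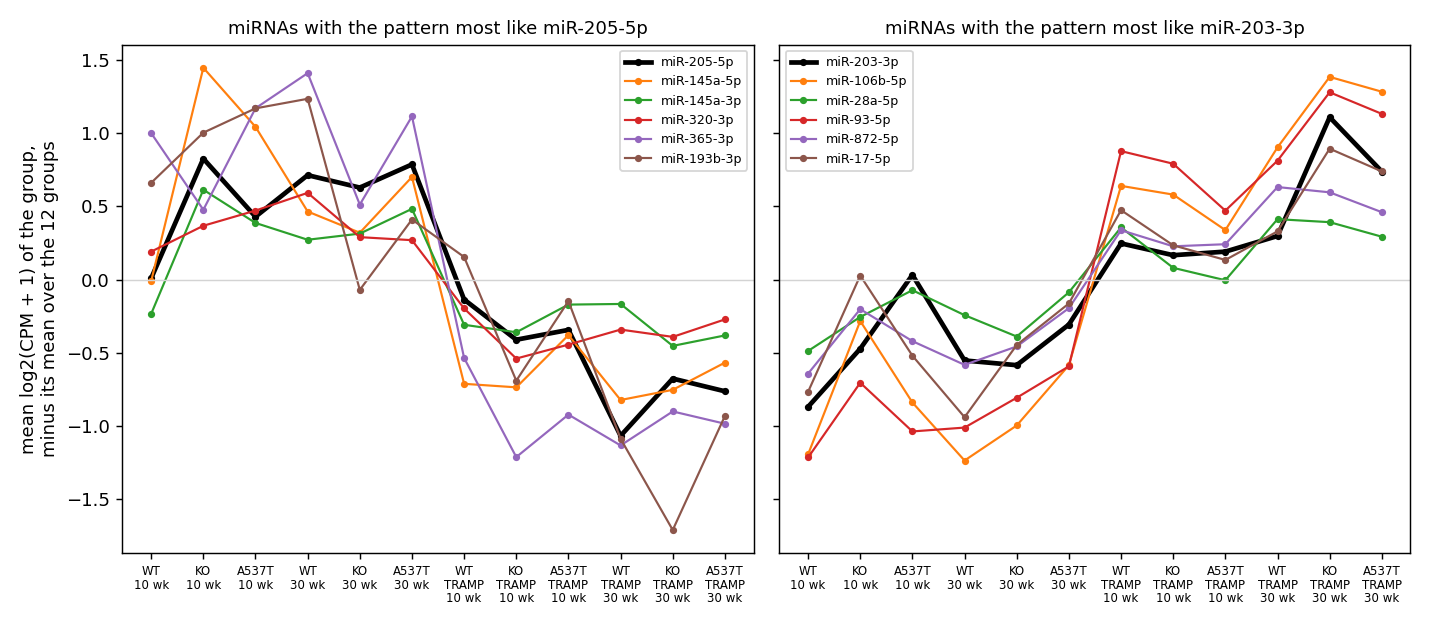
Mean log2(CPM + 1) of each group minus the mean over the 12 groups (vertical axes) for miR-205-5p (left, thick black) and miR-203-3p (right, thick black) with the 5 miRNAs of highest Pearson r to each (0.84 to 0.89 on the left and 0.88 to 0.92 on the right). The curves lie mostly lower on the left and mostly higher on the right in the TRAMP groups than in the non-TRAMP groups.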

How the data were processed

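Small RNA from ventral and lateral lobes (Illumina TruSeq small RNA, NovaSeq) was merged by the authors in BBMerge and counted in mirDeep2 against miRBase and GRCm38 (mm10). The authors deposited 8 tables of a normalised signal, the reads of each miRNA divided by a DESeq2 size factor, with 6 libraries each. Their tables of shrunken fold changes and s-values were not used. The columns carry a library number and no group name: columns found in both tables of an age and background (KO and point mutant) were assigned to the control, and the rest to the line in the table's name. Columns matched to no group numbered 0. All columns name 1 flow cell, so no batch could be compared. The TRAMP libraries carry the numbers 1 to 18 and the non-TRAMP libraries 19 to 36. Anything that followed library number therefore cannot be told apart from TRAMP. The labels number 3 replicates per group, which the study describes as samples from separate mice.

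Whole reads were recovered (100% of values whole within 0.001 read, or within 1e-06 of the value above 1000 reads), and the 12 control columns held in 2 tables gave the same reads. Each column was divided by its sum and scaled to CPM, which removes the separate scaling of the tables. Depth was 655455 to 21870210 reads. limma 3.58.1 (R 4.3.3, variance trend) was fitted to log2(CPM + 1) of all 36 libraries with 12 group means, for the 298 miRNAs with a mean of at least 10 CPM. Fold changes are on this log2(CPM + 1) scale. Tests were two-sided, and Benjamini-Hochberg adjustment ran over the 298 miRNAs of a contrast, with calls at an adjusted p under 0.05. Contrasts share libraries and are not independent. Ratios were tested by exact permutation of the labels within lines. Alternatives were a pseudocount of 10 CPM, no filter, a mean of at least 100 CPM, TMM scaling, a total without skeletal muscle miRNAs, no variance trend, edgeR 4.0.16, DESeq2 1.42.0, each deposited table alone, another ratio denominator and leaving out each library. The limma fit was tested on simulated reads, and the permutation test on simulated log2 ratios. Named miRNAs were the members, the other arms and antisense entries of their hairpins, lists of miRNAs of the miR-200 family and of other epithelial, stromal, skeletal muscle, leukocyte, endothelial and neural cells, and the 5 miRNAs of highest r to each member. The members and lists were chosen with earlier results of these data known. Sequences were matched by name to RefSeq (1670 of 1963 names).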

Additional observations from a re-analysis of the deposited data

Results flagged for a closer look

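The TRAMP difference of miR-205-5p differed between the ages when that difference was tested itself. Averaged over the 3 lines, it changed by -0.83 on the log2 scale from 10 to 30 weeks (limma adjusted p = 0.0126, range 0.000334 to 0.035 over 8 other settings and 0.00546 to 0.0233 over 36 exclusions of 1 library). At 10 weeks the TRAMP libraries averaged 1936 CPM against 3217 CPM without TRAMP, and at 30 weeks they averaged 1342 against 3753 CPM. In KO the TRAMP difference was nearly the same at both ages (-1.24 and -1.30). It went from -0.15 to -1.78 in WT and from -0.77 to -1.55 in A537T. Over 8 other settings the WT value at 10 weeks ran from -0.47 to -0.14. The share of skeletal muscle miRNAs was highest in the non-TRAMP libraries of 10 weeks, and with those reads left out of the total the change was -0.67 (adjusted p = 0.0255). Groups of 3 libraries were not tested for single libraries far from the others.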

How the results depend on the processing

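The averaged TRAMP differences of both miRNAs kept their direction and their call at 10 and 30 weeks under all 8 other settings and all 18 exclusions of 1 library. For miR-205-5p they ran from -0.87 to -0.57 at 10 weeks and from -1.63 to -1.43 at 30 weeks, and for miR-203-3p from 0.48 to 0.78 and from 1.11 to 1.31. No paired analysis was possible because the columns of the tables carry no replicate numbers. Most values that turned sign were near 0 and uncalled on both sides. The causes of these changes were not tested.

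With no filter the averaged age differences in TRAMP mice lost their calls at -0.54 (miR-205-5p) and 0.51 (miR-203-3p). DESeq2 turned the averaged age difference of miR-203-3p without TRAMP to 0.025, and called KO-TRAMP against WT-TRAMP at 30 weeks at 0.84. With skeletal muscle reads left out of the total, the change of the TRAMP difference of miR-203-3p between ages passed at 0.71, and its age difference in WT was -0.0036. Under TMM, edgeR and DESeq2 in turn, KO against WT at 30 weeks turned to 0.16, 0.15 and 0.11 for miR-205-5p and to 0.22, 0.25 and 0.21 for miR-203-3p, and for miR-203-3p at 10 weeks KO-TRAMP turned to 0.055, 0.061 and 0.11 and A537T-TRAMP to 0.083, 0.090 and 0.11. The age difference in KO turned to 0.033, 0.0022 and 0.10 for miR-205-5p and to 0.12, 0.14 and 0.23 for miR-203-3p. The A537T effect on miR-203-3p in TRAMP minus non-TRAMP at 30 weeks turned to -0.015 (TMM) and -0.024 (edgeR), and the KO effect at 30 minus 10 weeks without TRAMP to 0.049 (edgeR) and 0.084 (DESeq2). Fitted on each deposited table alone, KO against WT at 30 weeks was 0.14 for miR-205-5p and 0.20 for miR-203-3p, and miR-203-3p at 10 weeks was 0.13 in KO-TRAMP and 0.14 in A537T-TRAMP. With other epithelial miRNAs as denominator, the age differences of the ratios in TRAMP mice were -0.96 for miR-205-5p, now called, and 0.096 for miR-203-3p, no longer called.

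Leaving out 1 library at a time gave these ranges where a call or a sign changed. For miR-205-5p, the age difference in TRAMP mice ran from -0.63 to -0.43, KO against WT at 10 weeks from 0.58 to 1.07, A537T against WT at 30 weeks from -0.015 to 0.18, KO-TRAMP and A537T-TRAMP against WT-TRAMP at 10 weeks from -0.56 to 0.065 and from -0.50 to 0.13, TRAMP against non-TRAMP in WT at 10 weeks from -0.48 to 0.14, the age difference from -0.34 to 0.040 in KO and from -0.49 to 0.064 in KO-TRAMP, and the A537T effect in TRAMP minus non-TRAMP at 30 weeks from -0.023 to 0.46. For miR-203-3p, the averaged age difference ran from 0.42 to 0.62 with and from -0.16 to 0.099 without TRAMP, and the change of the TRAMP difference between ages from 0.41 to 0.68. KO and A537T against WT at 10 weeks ran from 0.046 to 0.83 and from 0.55 to 1.33, KO against WT at 30 weeks from -0.17 to 0.14, A537T-TRAMP at 10 weeks from -0.18 to 0.13 and KO-TRAMP at 30 weeks from 0.54 to 1.14. TRAMP against non-TRAMP in A537T at 10 weeks ran from -0.14 to 0.39, and the age difference from -0.034 to 0.75 in WT, from -0.25 to 0.060 in KO and from -0.024 to 0.099 in WT-TRAMP. Its log2 ratio to the miR-200 sum ran from -0.14 to 0.22 for TRAMP at 10 weeks and from -0.79 to -0.43 for age without TRAMP, where it passed without library 30 or 34.

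The number of miRNAs called, on which the backgrounds rest, moved with the filter. For TRAMP averaged at 10 weeks it was 212, with 405 under no filter and 116 at a mean of at least 100 CPM, and at 30 weeks 138, with 273 and 83. For age it was 111 without TRAMP, with 175 and 68, and 87 with TRAMP, with 152 and 47, and for the change of the TRAMP difference between ages 124, with 65 at 100 CPM. In single lines, no filter raised the count from 122 to 184 (TRAMP in WT, 10 weeks), 108 to 241 (TRAMP in KO, 30 weeks), 39 to 63 (age in WT) and 54 to 150 (age in KO-TRAMP), and lowered it from 26 to 15 (age in A537T-TRAMP, where TMM gave 14 and edgeR 12). The 100 CPM filter gave 72, 78 and 59 for TRAMP in WT, KO and A537T at 10 weeks (against 122, 142 and 117), 50, 69 and 27 at 30 weeks (against 100, 108 and 45), and for age 15 in KO, 35 in A537T, 11 in WT-TRAMP and 18 in KO-TRAMP (against 46, 54, 26 and 54). For age in KO, TMM, edgeR and DESeq2 called 78, 81 and 98, and for age in WT-TRAMP DESeq2 called 44. Among mutant contrasts, KO against WT at 30 weeks called 3 miRNAs, and 35 in edgeR and 39 in DESeq2. A537T against WT at 30 weeks called 0, and 19 and 24. KO-TRAMP at 30 weeks called 12, and 25 and 43, with 65 under no filter, 23 at a pseudocount of 10 CPM and 0 at 100 CPM. KO against WT at 10 weeks called 17, with 28 under no filter, 10 at 100 CPM and 32 in DESeq2, and these 3 KO contrasts called 0 on each deposited table alone. The KO effect in TRAMP minus non-TRAMP called 0 at 10 weeks, and 11 in edgeR and 16 in DESeq2, and 26 at 30 weeks, and 41 and 48, with 6 at 100 CPM. Library 35 held the fewest reads, and the passenger arms were too shallow to test.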
